A study of Homo sapiens with 9 samples.

Results

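The transcriptome described here is that of NCI-H1155 cells given only the vehicle DMSO, as read in the 3 DMSO libraries of a series of 9. They were chosen by their label alone, and the table gave 23369 genes for each. NCI-H1155 is an established human lung cancer line with neuroendocrine features, grown here as a single cell type in serum-containing RPMI-1640. The other 6 libraries came from cells given 1 µM foretinib or 1 µM cabozantinib, multi-kinase inhibitors, for 4 h beginning 24 h after plating, and none of their values was used. The vehicle cultures carry the replicate numbers 2, 4 and 5. The labels speak of biological triplicates, and they give the 4 h only for the compounds. No library of cells without DMSO was analysed, so the baseline is that of solvent-treated cells. Values are normalised read counts, which are the reads of a gene divided by 1 size factor per library, and errors are SD over n = 3 libraries. One group with no contrast allows no test, so levels are described by their values and by whether the values of the 3 libraries overlap.

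Neuroendocrine cells of the airway are rare sensory cells that store peptides in dense-core granules, and tumours that share their features include small cell and large cell neuroendocrine carcinomas. Their identity is set by basic helix-loop-helix and zinc-finger transcription factors: NEUROD1 starts neuronal programmes, and INSM1 acts in the same cells. MYC family genes drive growth in many of these tumours. The kinds of such tumours are often named by the factor that leads, NEUROD1, POU2F3 and YAP1 among them, and POU2F3 and YAP1 mark tumours with few neuroendocrine features.

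The 4 genes used as markers of the line were chosen with earlier results of these data known. Where 18.0% of all genes were at 1000 or more in all 3 libraries, these 4, NEUROD1, MYCN, BEX1 and SYP, were read at 1965 or more. The 250 bases before the annotated start of each of these genes are shown beside those of 2 genes listed at 0 in all 3 libraries, YAP1, a Hippo pathway coactivator, and SFTPB, a surfactant protein of alveolar cells. They are shown because CpG-rich promoters occur among expressed genes and among genes listed at 0. Sequences are from RefSeq on GRCh38.p14, a later build than the one the authors aligned to. They read 5′ to 3′ on the gene's own strand, and CG dinucleotides are in capitals.
NEUROD1: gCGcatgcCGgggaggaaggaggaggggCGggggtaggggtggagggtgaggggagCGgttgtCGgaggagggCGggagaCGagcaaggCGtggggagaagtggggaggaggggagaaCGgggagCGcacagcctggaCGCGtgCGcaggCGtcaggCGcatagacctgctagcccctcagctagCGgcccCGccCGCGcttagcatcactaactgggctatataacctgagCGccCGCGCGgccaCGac
BEX1: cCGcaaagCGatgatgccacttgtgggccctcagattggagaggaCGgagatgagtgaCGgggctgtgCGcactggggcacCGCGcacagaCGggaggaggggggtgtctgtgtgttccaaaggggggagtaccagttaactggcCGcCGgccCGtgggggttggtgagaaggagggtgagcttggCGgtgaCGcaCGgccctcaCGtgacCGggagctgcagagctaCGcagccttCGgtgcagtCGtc
SYP: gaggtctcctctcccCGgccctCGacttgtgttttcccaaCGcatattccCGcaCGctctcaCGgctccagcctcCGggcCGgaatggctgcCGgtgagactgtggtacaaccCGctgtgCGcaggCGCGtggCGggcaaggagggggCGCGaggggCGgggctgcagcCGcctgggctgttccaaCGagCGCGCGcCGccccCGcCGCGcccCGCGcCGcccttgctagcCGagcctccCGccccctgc
MYCN: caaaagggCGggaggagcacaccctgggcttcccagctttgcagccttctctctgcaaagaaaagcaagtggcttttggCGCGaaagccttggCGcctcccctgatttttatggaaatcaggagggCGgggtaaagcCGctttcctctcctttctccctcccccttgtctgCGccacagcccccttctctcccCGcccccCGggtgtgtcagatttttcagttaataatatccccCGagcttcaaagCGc
YAP1: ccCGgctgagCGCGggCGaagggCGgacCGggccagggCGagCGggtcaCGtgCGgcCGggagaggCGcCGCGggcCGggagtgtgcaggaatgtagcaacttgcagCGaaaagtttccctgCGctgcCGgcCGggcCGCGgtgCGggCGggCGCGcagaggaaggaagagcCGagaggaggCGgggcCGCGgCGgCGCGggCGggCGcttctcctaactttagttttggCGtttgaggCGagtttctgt
SFTPB: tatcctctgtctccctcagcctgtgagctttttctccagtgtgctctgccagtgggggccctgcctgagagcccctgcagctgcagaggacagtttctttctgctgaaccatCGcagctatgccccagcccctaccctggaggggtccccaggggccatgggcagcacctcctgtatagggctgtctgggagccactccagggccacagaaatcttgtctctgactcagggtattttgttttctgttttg
These windows lie at chr2:181680518-181680767, minus strand (NEUROD1), chrX:103064172-103064421, minus strand (BEX1), chrX:49200194-49200443, minus strand (SYP), chr2:15940300-15940549, plus strand (MYCN), chr11:102110197-102110446, plus strand (YAP1) and chr2:85668742-85668991, minus strand (SFTPB). The window of NEUROD1 held 24 CG dinucleotides, that of BEX1 19, that of SYP 31 and that of MYCN 11. YAP1, listed at 0, had 36, more than any of the 4 expressed genes, and SFTPB had 1.

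The most abundant RNAs came from genes for chromatin, translation and the cytoskeleton and from noncoding RNA genes. The 25 genes with the most reads took 14.6% ± 0.587 of each library, of which MTRNR2L2 alone made 4.47% ± 0.541. With MTRNR2L2 left out, the 25 genes with the most reads took 10.9% ± 0.396 of the rest. MTRNR2L2 is nearly identical to mitochondrial ribosomal RNA, and its reads cannot be placed with certainty. Next by reads was MALAT1, a nuclear long noncoding RNA, at 285623, 225742 and 240957. RMRP, the RNA of a ribonuclease that processes ribosomal RNA, was at 217154, 278570.0 and 224523. Their values overlapped, with RMRP above MALAT1 in replicate 4. Of the protein-coding genes PTMA, which encodes the chromatin-associated prothymosin alpha, stood first at 209936 ± 16506. TMSB4X, which binds actin monomers, gave 162041 ± 11516, and EEF1A1, a translation elongation factor, 150283 ± 10436. Ribosomal protein genes took 5.21% ± 0.281 of the reads over 86 genes, and histone genes with the HIST prefix 2.95% ± 0.385 over 73 genes, both families with copies so alike that single members are uncertain.

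BEX1 stood among these housekeeping genes. To compare genes of different size, values were divided by the length of the longest annotated transcript, and the level per kb of 13381 detected genes was ranked. BEX1 came 33rd, in the top 0.247%, at 30853 normalised read counts per kb. Setting aside ribosomal protein, histone and MTRNR2L genes it was the 11th of all protein-coding genes per kb, beside TUBA1B at 31638, HSPA8 at 31531 and SLC25A5 at 29759.5 per kb. PCNA, the replication clamp, gave 18297 per kb and NEUROD1 4787.

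A gene read at 100 to 300 in a library could be missed in another, and this limits what a 0 means. Of the 23369 genes, 10615 (45.4%) were above 0 in all 3 libraries, 9366 (40.1%) were listed at 0 in all 3, and 1687 were above 0 in 1 library alone. Replicate 2 had the fewest genes above 0, 11655, against 12643 and 12636 in replicates 4 and 5, although its recovered total of 32986439 reads was above the 27257862 and 27715317 of the others. Among genes read at 100 to 300 in a library, 14.9% to 31.7% were at 0 in another, over the 6 ordered pairs of libraries. At 300 to 1000 the share was 1.66% to 6.54%, at 1000 to 3000 it was at most 0.261%, and from 3000 up it was 0. The median coefficient of variation between libraries fell from 89.3% at a mean of 100 to 300 to 28.1% at 1000 to 3000 and 12.3% at 10000 or more. Pearson's r of log2(value + 1) was 0.668 to 0.671 across 13314 genes with a mean of 10 or more, which are not independent replicates. A gene at 0 in 1 library is therefore not read as absent below, and one at 0 in all 3 is called listed at 0.

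**Figure D1:**
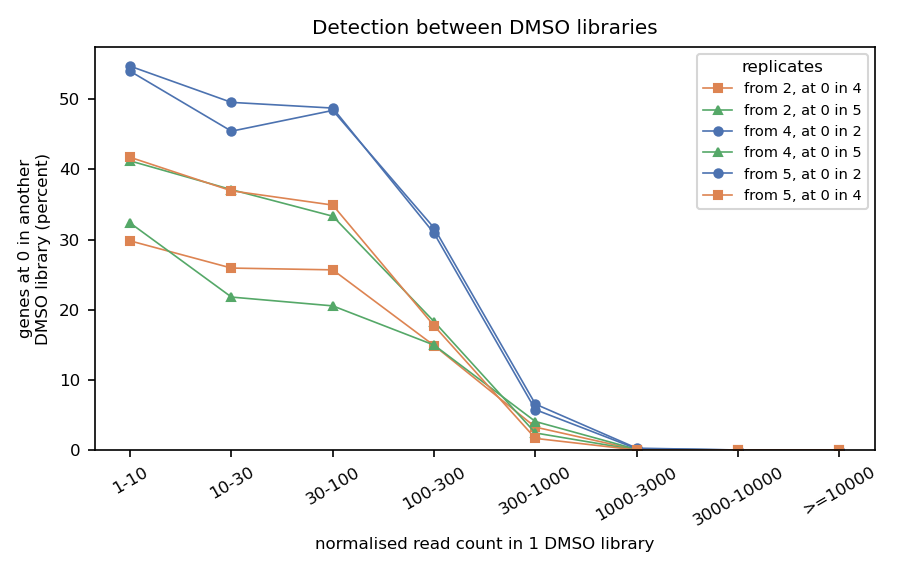
Share of genes that were at 0 in a second DMSO library (vertical axis, percent), by their normalised read count in a first (horizontal axis, classes of level); each line is 1 ordered pair of the 3 libraries. The lines start between 29.8% and 54.7% at 1 to 10 reads, and from 3000 reads up all 6 are at 0; the upper 2 lines are those that end in replicate 2.

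The transcription factors of neuroendocrine identity were led by NEUROD1, INSM1, FOXA2 and NEUROD4, with the RNA-binding protein ELAVL2 beside them. NEUROD1, a helix-loop-helix factor that turns on neuronal genes, was read at 13907, 13249 and 13806, or 13654 ± 354. Its 3 values had a CV of 2.60%. INSM1, a zinc-finger repressor needed for neuroendocrine differentiation, was read at 9367, 13255 and 16477. The per-kb values of NEUROD1 and INSM1 overlapped, with 4787 and 4607 on average, so neither stood above the other. ELAVL2, a neuronal RNA-binding protein that stabilises messages, gave 23799, 15378 and 18672, and at 5068 per kb it overlapped with NEUROD1 too. FOXA2, a pioneer factor of the foregut endoderm, gave 6122, 6450.1 and 5445, and its 3 values per kb lay below all those of NEUROD1, which were 1.93 times higher on average. NEUROD4, a related helix-loop-helix factor, gave 4276, 5493 and 5552.

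In bulk RNA fewer cells of a kind and less RNA per cell cannot be told apart. POU4F1, a homeodomain factor of sensory neurons, was read at 2498, 2066 and 3191, and SOX4, a factor of neural progenitors, at 3324, 1888 and 3093. Of the 36 genes of this list, which counts ELAVL2, ELAVL3, ELAVL4 and TAGLN3 beside the factors, 10 (27.8%) were at 1000 or more in all 3 libraries, against 18.0% of all genes, and 9 (25%) were listed at 0, against 40.1%. The 9 were SOX2, NEUROG1, NEUROG2, NEUROG3, ATOH1, MYT1L, RFX6, SCRT2 and ONECUT3, several of which act early in neural or endocrine development. The list's median mean level was 313, against 74.0 over all genes in the table. Without the ELAVL genes and TAGLN3, 8 of 32 (25%) were at 1000 or more and 9 (28.1%) at 0, with a median of 263.

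Helix-loop-helix factors of this class bind DNA as pairs with the E proteins TCF3, TCF4 and TCF12, and ID proteins block that pairing. TCF4 was read at 5770.1, 4285 and 5921, and TCF12 at 2367, 5548 and 2837, with replicate 4 above the others. TCF3 was lowest, at 360.2, 664 and 1171. ID2 was read at 3419, 4655 and 5322, ID3 at 1992, 1493 and 1688 and ID1 at 1292, 1239.6 and 1687. All 4 ID genes and all 3 E proteins were at 100 or more in every library, against 39.1% of all genes; this group was picked after the values had been seen.

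The other class-defining factors were not detected. POU2F3, a factor of tuft cells, YAP1 and its partner WWTR1, TP63, a factor of basal and squamous cells, and HNF4A, a factor of gut and liver endoderm, were each listed at 0 in all 3 libraries. REST, a repressor of neuronal genes in other cells, was detected, at 649.6, 359.6 and 561. The median mean level was 74.0 over all genes in the table and 639 over genes detected in any library. SOX9, a factor of distal lung progenitors, was in contrast read at 4197, 3429 and 3473. NKX2-1, the lung and thyroid lineage factor, was at 144, 1.00 and 159, in the range where a library often misses a gene.

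**Figure D2:**
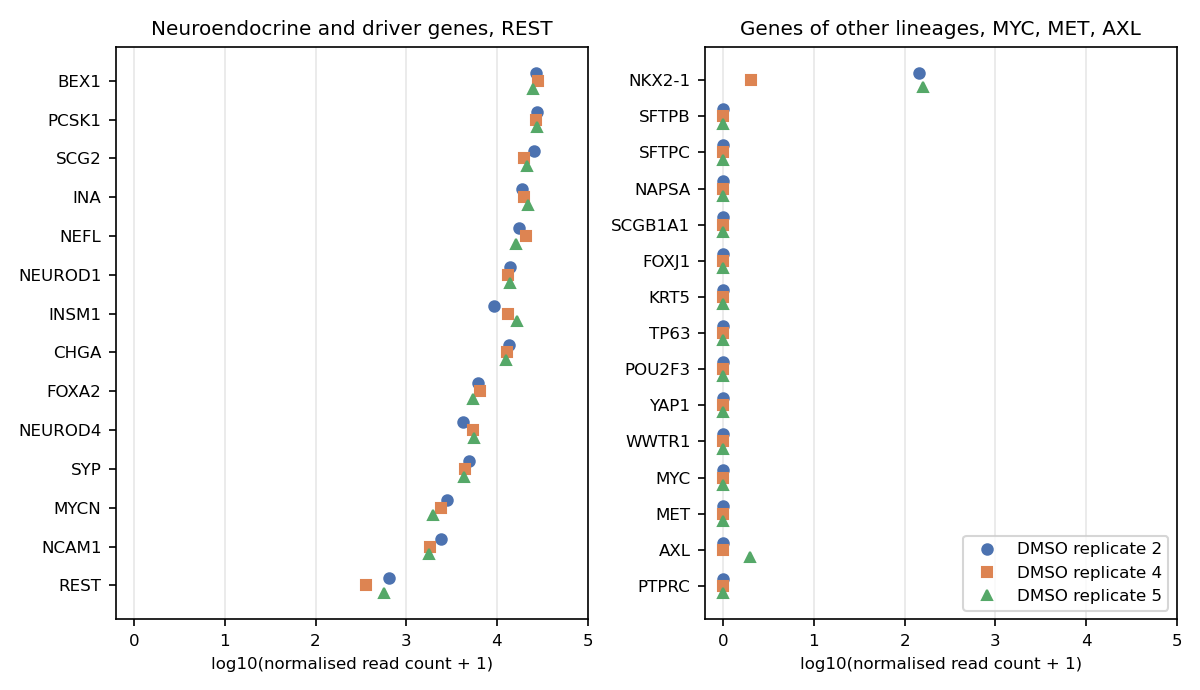
Normalised read counts of single genes in the 3 DMSO libraries, as log10(value + 1) on the horizontal axis; each symbol is 1 library. Left: neuroendocrine and driver genes from BEX1 (24680.3 to 28359.8) down to MYCN (1965 to 2797) and NCAM1, with REST below them at 359.6 to 649.6. Right: genes of other lineages with MYC, MET and AXL, where every symbol is at 0 except those of NKX2-1 and 1 of AXL.

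Genes for the machinery of peptide granules were read at high levels. PCSK1, the convertase that cuts prohormones, gave 27861, 27255 and 27383, a CV of 1.16%. SCG2, a granin that helps form dense-core granules, gave 25386, 19878 and 21307, and CHGA, the granin most used in diagnosis, 13626, 12826 and 12538. Per kb SCG2 lay above CHGA in all values, with 8614 and 6299.8 on average. VGF, a secreted neuropeptide precursor, was read at 6993 ± 607, CHGB at 4572 ± 219 and SCG3, a granin that binds CHGA, at 4416 ± 379. SYP, a membrane protein of synaptic-like vesicles and a diagnostic marker, was read at 4979, 4458 and 4294. Its values per kb were below those of CHGA in every library, at 0.291 times on average.

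Genes for proteins that dock and release vesicles were read as well. UNC13A, which primes vesicles for release, gave 7037 ± 597 and SYN1, which tethers them, 5290.1 ± 926. Of 39 granule and vesicle genes, 15 (38.5%) were at 1000 or more in all 3 libraries, against 18.0% of all genes. PCSK2, the other main convertase, was read at 0, 0 and 43.1, and per kb its values lay far below all those of PCSK1. The 4 members listed at 0 were TH, DBH, TPH1 and SLC18A2, which make or load monoamines.

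Of the 27 peptide hormones and peptide receptors of the list, 20 (74.1%) were listed at 0, against 40.1% of all genes. Among the 20 were GRP, a peptide of normal lung neuroendocrine cells, CALCA, POMC, SST, GAST, VIP and NPY. SSTR2, the somatostatin receptor targeted by imaging agents, was the only member above 0 in all 3 libraries, at 89.0, 195 and 153. The list does not hold every peptide: VGF is counted with the granule genes, and ADCYAP1, which encodes the neuropeptide PACAP and was looked up after the values had been seen, was read at 3029, 2834 and 2735. The 27 genes together gave sums of 89 to 595 normalised read counts per library, while the 39 granule genes gave 124480 to 135453.

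Neuronal cytoskeleton and surface genes were high. INA, a neuronal intermediate filament, was read at 18983, 20021 and 21789, NEFL at 17691, 21106 and 16395, and NEFH at 10100.5, 11357 and 11666. The fourth neurofilament, NEFM, which assembles with NEFL, was read at only 546, 114 and 261. Per kb NEFL was 59.0 times NEFM, with no overlap. L1CAM, an adhesion molecule of growing axons, was at 8029 ± 982 and NCAM1, known as CD56, at 2414, 1830.2 and 1787. Of 32 genes of this list, 16 (50%) were at 1000 or more in all 3 libraries, against 18.0% of all genes. DLL3, an inhibitory Notch ligand and a drug target in neuroendocrine tumours, was at 1.66, 951 and 611, so that replicate 2 lay far below the other two.

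BEX and TCEAL genes, a cluster of small related genes on the X chromosome, were led by BEX1 at 26931, 28359.8 and 24680.3. BEX3, listed as NGFRAP1, gave 7584, 15754 and 11568, and TCEAL9, listed as WBP5, 8619, 9245 and 7882. BEX2, a close relative of BEX1 in sequence, gave 1869, 2507 and 2429. Per kb BEX1 was 2.44 times BEX3 and 14.6 times BEX2, with no overlap in either case, although reads of such relatives can be split between them. Of 14 members, 7 (50%) were at 1000 or more in all 3 libraries, against 18.0% of all genes, and TCEAL5, TCEAL6 and TCEAL7 were listed at 0.

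MYCN was the one MYC gene detected. It was read at 2797, 2433 and 1965, and MYC and MYCL, whose products are close relatives that bind the same sites with MAX, were listed at 0 in all 3 libraries. MAX, the dimer partner, was at 918, 1512 and 1554. DDX1, a helicase gene that neighbours MYCN and is often amplified with it, was at 8495, 12032 and 10782. Per kb MYCN lay below DDX1 in every library, at 0.249 times on average, and the files hold no copy numbers. AURKA, a mitotic kinase that stabilises the MYCN protein, was at 2827, 2492 and 2733. MYCN per kb was 922, in the top 14.5% of ranked genes, well below NEUROD1.

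The RB pathway is often lost in such tumours, and here its genes varied. RB1, which restrains entry into S phase, was read at 180.5, 179.8 and 415, a level at which a library can miss a gene. CDKN2A, an inhibitor of the cyclin D kinases, was at 1498, 5819 and 4907, with replicate 2 lowest. CDK6 was listed at 0 and CDK4 was at 2607 ± 561. CCND3 was at 3192, 2121 and 1399.8, while CCND1 was at 18.3, 257 and 311, and per kb their values did not overlap. Of the 24 genes of this list 7 (29.2%) were at 1000 or more in all 3 libraries, against 18.0% of all genes. RNA levels do not show whether a gene is mutated.

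Genes for division were among the highest of all lists. MKI67, a marker of cycling cells, was at 48044, 39840.5 and 49255, and PCNA at 25681, 25451 and 23464. Of 28 proliferation genes, 25 (89.3%) were at 1000 or more in all 3 libraries, against 18.0% of all genes. Of 27 chromatin regulators 24 (88.9%) were, led by HMGN2 at 135577 ± 14360.5. SMARCA4, an ATPase of the SWI/SNF complex, was at 13314, 10345 and 11734, above its paralogue SMARCA2 at 2459, 1538 and 1577. Per kb the ratio was 7.74, with no overlap.

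**Figure D3:**
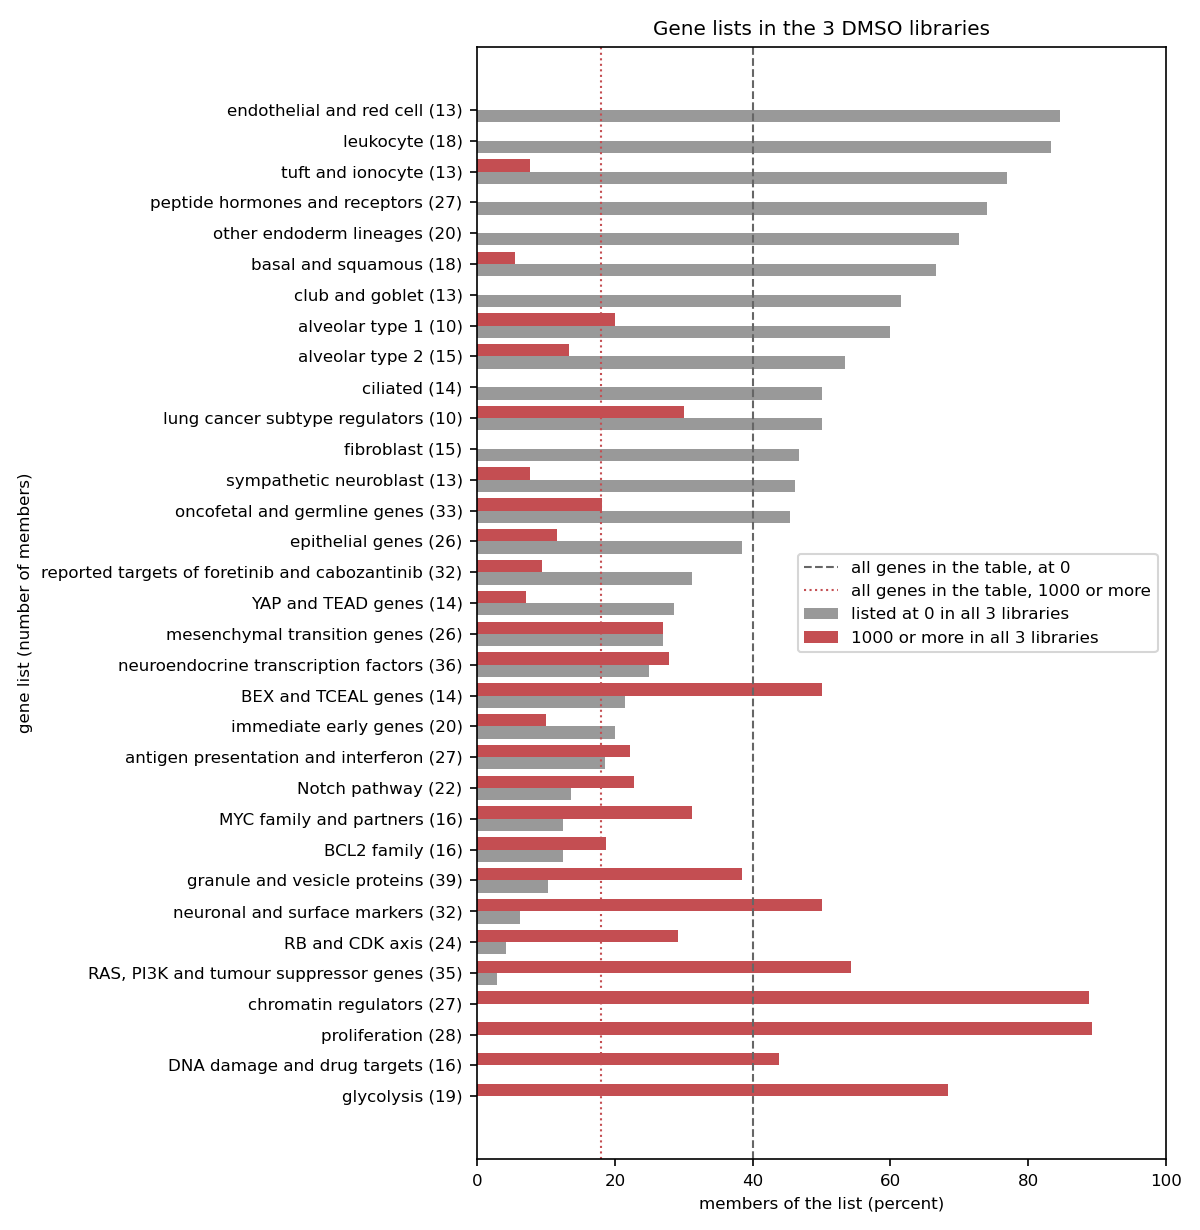
For each gene list shown (vertical axis, number of members in brackets), the percent of members listed at 0 in all 3 DMSO libraries (grey) and at 1000 or more in all 3 (red); dashed and dotted lines give the same percents over all genes, 40.1% and 18.0%. Proliferation reaches 89.3% at 1000 or more, and endothelial and red cell genes 84.6% at 0.

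Genes of lung lineages were mostly listed at 0, but not all. Of 83 genes in 6 lists of lung cell types, 51 (61.4%) were listed at 0 in all 3 libraries, against 40.1% of all genes, and 53 were below 10 in all 3, a share of 42.1% over all genes. The 121 neuroendocrine genes, pooled from the lists of factors, granules, neuronal genes and BEX genes, had 18 at 0 and 48 (39.7%) at 1000 or more. They took 1.41%, 1.34% and 1.38% of reads, and the lung lineage genes 0.0763%, 0.0667% and 0.0623%.

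Several defining genes of the airway and alveolus were at 0. These were SFTPB, SFTPC, SFTPD, NAPSA and SLC34A2 of alveolar type 2 cells, AQP5, PDPN and HOPX of alveolar type 1 cells, SCGB1A1 of club cells and FOXJ1 of ciliated cells. KRT5, KRT14 and TP63 of basal cells were at 0 too, as were TRPM5 and POU2F3 of tuft cells. At 0 in all 3 libraries were 8 of 15 type 2, 6 of 10 type 1 and 8 of 13 club and goblet genes. So were 7 of 14 ciliated, 12 of 18 basal and 10 of 13 tuft and ionocyte genes. The share over all genes was 40.1%, and the ciliated and type 2 lists, at 50% and 53.3%, lay nearest to it. At the other end ABCA3, a lipid transporter of surfactant bodies, was at 2988, 3764 and 2198, and ETV5, a factor of type 2 cells, at 1546, 1539 and 1692. EMP2, a membrane protein of type 1 cells, was at 2542, 2542 and 1950.0, and RTKN2 at 2685, 1410.3 and 1142. PERP, a desmosome protein, was at 1381 ± 335. These 5 genes and SOX9 were the members at 1000 or more in all 3 libraries, 6 of 83 (7.23%) against 18.0% of all genes. They are used by other cells too. SOX9 was counted in the tuft and ionocyte list, which took 0.0148% of reads, and 0.00121% without SOX9. SFTPA1 was at 0, 154 and 197 and AGER at 0, 292 and 0, levels at which a gene is often at 0 in another library.

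Most markers of blood and vessel cells were listed at 0, and fibroblast genes were mixed. Of 46 fibroblast, leukocyte, endothelial and red cell genes, 33 (71.7%) were listed at 0, against 40.1% of all genes. Of the 46, 5 were at 100 or more in all 3 libraries, against 39.1% of all genes, and 0 were at 1000 or more, against 18.0%. By list, 7 of 15 fibroblast, 15 of 18 leukocyte and 11 of 13 endothelial and red cell genes were at 0. PTPRC, CD3D, CD14, VWF, CDH5, HBB, COL3A1 and DCN were listed at 0. FBLN1, a matrix protein, was at 732, 1685 and 933, and CORO1A, an actin regulator of blood cells and neurons, at 1223, 1265 and 476. Their summed levels were 0.0164% ± 0.0032 of reads. Of 20 genes of other endoderm organs, 14 (70%) were at 0, against 40.1% of all genes, and GATA4 at 731, 654 and 888 was the highest.

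Epithelial and mesenchymal genes were both in part present. KRT18 and KRT8, the keratins of simple epithelia, were at 2704, 4005 and 3858 and at 1230.2, 2282 and 1565, and KRT19 was listed at 0. TJP1, a tight junction scaffold, was at 5845 ± 709, while EPCAM, an epithelial surface protein, was at 4.16, 266 and 317. VIM, the mesenchymal filament, was at 6372, 8760.5 and 9737, and per kb it lay above KRT18, by 2.14 times. ZEB1, which represses epithelial genes, was at 1332, 1798 and 2249. E-cadherin, CDH1, was at 23.3, 0 and 84.2 and N-cadherin, CDH2, at 0, 2.01 and 0. Of 26 epithelial genes 10 (38.5%) were listed at 0, near the 40.1% of all genes, and of 26 mesenchymal genes 7 (26.9%).

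Notch signalling opposes the neuroendocrine state, and its activity was not measured here. Of 22 Notch pathway genes, 5 (22.7%) were at 1000 or more in all 3 libraries, against 18.0% of all genes. Listed at 0 were 3 (13.6%), against 40.1%. HES1, a repressor that Notch switches on, was at 2734, 3497 and 3287, while NOTCH1 was listed at 0. NOTCH2 was at 1024, 1099 and 1135. DLK1, a ligand-like inhibitor of Notch that is on in fetal tissue, was at 4764, 5968 and 6029. HES6, which counters HES1, was at 502, 207 and 109.6 and lay below HES1 per kb in every library.

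The kinases that foretinib and cabozantinib are reported to bind lay near all genes as a list in detection and median level, but fewer were high. Of the list, 16 of 32 (50%) were above 0 in all 3 libraries, against 45.4%, and the median mean level was 86.5, against 74.0. MET, KDR, KIT, TEK, ROS1, CSF1R, PDGFRB, NTRK2, NTRK3 and FES, 10 of 32 (31.2%), were listed at 0 in all 3 libraries, against 40.1% of all genes. AXL was at 0, 0 and 0.979. At 1000 or more in all 3 libraries were 3 of 32 (9.38%), against 18.0% of all genes. They were PTK2, a focal adhesion kinase, at 5979.8, 3887 and 5509, AURKA at 2684 ± 173 and MAP2K2, a kinase upstream of ERK, at 1221, 1871 and 1184. MAP2K1 was at 60.7, 863 and 1818, with replicate 2 lowest by far. Of ERK-responsive early genes EGR1 was at 4430.1, 4525 and 4944 and DUSP6, an ERK phosphatase, at 3561, 2858 and 3247, and EGR2, EGR3, FOSB and MYC were listed at 0.

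Antigen presentation genes of class I were present and those of class II were not. HLA-B was at 4671, 8223 and 8346, a gene whose reads may be shared with its close relatives. B2M, the class I light chain, was at 1121, 2118 and 1476. HLA-DRA, HLA-DRB1 and CD74 were listed at 0. Of 33 oncofetal and germline genes, 15 (45.5%) were at 0, near the 40.1% of all genes, among them LIN28A, LIN28B and PRAME, while IGF2BP1, an RNA-binding protein of fetal tissue, was at 5087, 4144 and 4324 and HMGA1 at 3550.1, 4359 and 4196.

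HOX genes, which give position along the body axis, were read from all 4 clusters. Of 39 HOX genes in the table, 24 were above 0 in all 3 libraries, a share set beside 45.4% of all genes. By cluster the counts were 9 of 10 in HOXB, 7 of 9 in HOXC, 4 of 11 in HOXA and 4 of 9 in HOXD. HOXC10 was the highest, at 3533, 2998 and 3014, and HOXB6, at 1124, 1034 and 865, the next by per-kb level. The family was picked after its values had been seen.

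**Figure D4:**
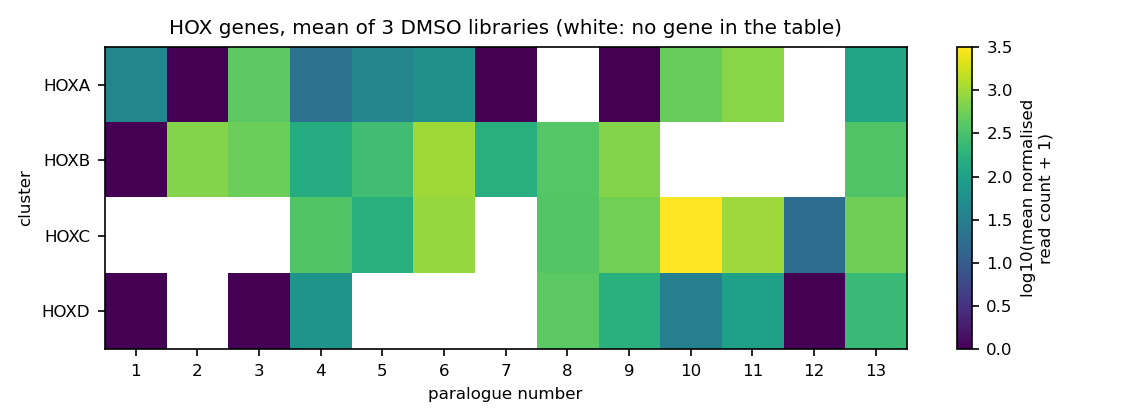
Mean level of each HOX gene in the 3 DMSO libraries, as log10(mean normalised read count + 1) in colour, by cluster (vertical axis) and paralogue number (horizontal axis); white squares hold no gene of the table. HOXC10 is brightest, and HOXB has 9 of 10 genes above 0 in all 3 libraries.

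Genes listed at 0 and expressed genes differed in promoter CpG content overall. Over 14973 protein-coding genes with a RefSeq promoter, the median number of CG dinucleotides in the 250 bases before the start was 5 for 4523 genes listed at 0 in all 3 libraries, 16 for those with a mean below 100, 21 for 100 to 1000 and 22 for both higher classes. The share of promoters with 15 or more was 25% at 0 and 78.9% at a mean of 10000 or more, against 58.9% over all genes. YAP1 and MET, with 36 and 24, are genes listed at 0 within that CpG-rich share, and MYCN, with 11, is an expressed gene outside it. The E-box CACGTG, the site that MYC family proteins bind with MAX and that reads the same on both strands, was in 5.33% of promoters of genes at 0 and in 11.2% of those at 10000 or more, against 7.90% of all 14973. A match shows only that these letters are in the window, and median GC content differed as well, with 54.0% at 0, 65.6% at 1000 to 10000 and 63.8% at 10000 or more.

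**Figure D5:**
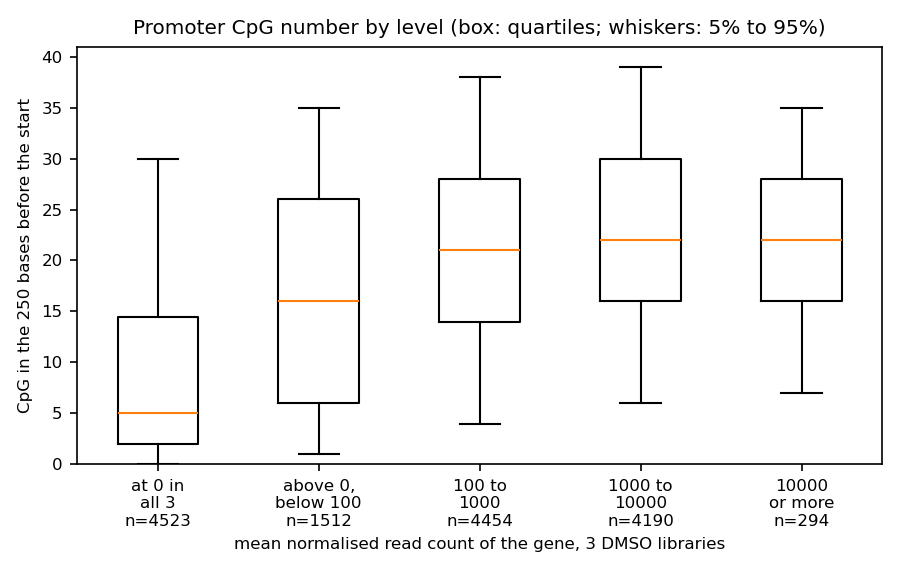
Number of CG dinucleotides in the 250 bases before the start (vertical axis) of protein-coding genes grouped by their mean normalised read count in the 3 DMSO libraries (horizontal axis); boxes are quartiles with the median, whiskers the 5th and 95th percentiles. The median rises from 5 in genes at 0 to 22 from 1000 reads up, and the box of genes above 0 and below 100 lies between them at 16.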

How the data were processed

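RNA of the 3 DMSO cultures was made into libraries with the NuGEN Encore Complete kit, per the labels' protocols. The authors deposited 1 signal value per gene and library, which behaves as a read count divided by a size factor: 100% of values were whole multiples of 1 step per library, within 1e-06 of a read, and multiplying back gave the recovered totals. Tools listed in the submitters' processing notes are HTSeq, DESeq2, Cufflinks 2.2.1 and TopHat2 2.0.13, with hs37d5 as the genome. How each was used, the annotation, the strandedness of counting and the meaning of "combined" in the column names: not given in the sources used here. Without a strand setting a gene and an overlapping antisense gene cannot be told apart, and reads of near-identical copies may be split or dropped. Molecular identifiers were not used, so reads of 1 molecule may be counted repeatedly and no upper limit was drawn from a 0.

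Values were used as deposited, with Python 3.11.15, pandas 2.3.3, numpy 2.4.6 and matplotlib 3.10.9. One group was described and nothing was tested. Correlations used log2(value + 1), computed from the deposited values, over genes with a mean of 10 or more. The code for spread and detection was tested on simulated data. Levels per kb used gene lengths from GENCODE 29, found for 21636 genes. The length was first taken as the median transcript and changed to the longest transcript after the values had been seen, because the median gave implausibly short lengths for some genes; merged exons were tried as well. Promoters are the RefSeq windows of GRCh38.p14, without the bases after the start.

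The members and the 34 gene lists, of which 685 entries matched a row, were chosen with earlier results of these data known. TIGAR, MUC5AC, PIFO and MCIDAS are not analysed here, and some further genes are not reported here. Named genes were the 25 with the highest mean, 20 chosen by symbol prefixes of transcription factors, list members with the highest mean or at 0, and 21 fixed genes; the text describes some of them. The prefix rule also took genes that are no transcription factors, such as SPTBN1 and IDE. The pairs of genes compared per kb, the HOX, E protein and ID, nicotinic receptor, cadherin and keratin groups, and the CpG and E-box counts were chosen after the values had been seen. Alternatives were other detection limits, filters, pseudocounts, totals and lengths, and leaving out each library.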

Additional observations from a re-analysis of the deposited data

How the results depend on the processing

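No paired analysis was possible because only 1 group was described and no test was made. The number of genes above 0 in all 3 libraries, 10615, stayed between 9145 (100 or more) and 14003 (above 0 in any library), and between 10970 and 11605 when 1 library was left out. The share of reads in the top genes was 10.2% for 10 genes, 18.99% for 50 and 10.9% with MTRNR2L2 left out, an alternative chosen after seeing the data, and 14.3% to 14.8% without 1 library. The neuroendocrine share of 1.37% became 1.496% of a total without ribosomal protein and histone genes, 0.610% per kb and 1.27% without PCSK1, and ran from 1.36% to 1.39% without 1 library. The lung lineage share of 0.0684% became 0.0181% per kb and 0.0549% without SOX9, and ran from 0.0645% to 0.0715% without 1 library. The 53 lung lineage members below 10 were 51 at 0, 54 below 50 and 57 below 100, and 55 without any 1 library. Pearson's r of 0.670 became 0.776 with a pseudocount of 10, 0.617 for genes with a mean of 100 or more and 0.899 without a filter. With 3 libraries, leaving 1 out cannot move a list's mean share by 1 SD, so that this says nothing of its stability. The endothelial and red cell share, 0.000126% of reads, was 0.0000300% without replicate 4. Of 102 list sums under the other alternatives 83 moved by more than 1 SD. Of 60 gene positions under all alternatives 29 moved, and of the 30 among them without 1 library 9 did.

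Gene length, a choice made after seeing the values, changed some orders per kb. By the median transcript MYCN was 0.643 times MAX, against 2.19 by the longest. It also gave PCSK1 1.02 times CHGA, against 0.858, and put NEUROD1 in the top 3.26% and BEX1 in the top 0.366%, against 2.19% and 0.247%. INA and NEFL overlapped by it, and AURKA and MYCN by it and by merged exons; the report states none of these pair orders. The NEUROD1 to NEUROD4 ratio was 3.71 under all 3 lengths. Detection is uncertain for genes below about 300, where libraries often disagree on a 0, and the cause of this was not tested.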

Other observations

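Some subunits of the nicotinic acetylcholine receptor, a ligand-gated channel, were read at 1000 or more, though CHRNA5 was below that in replicate 2. CHRNB4 was read at 2816, 2134 and 1452, CHRNA3 at 1908, 1755 and 1848 and CHRNA5 at 794, 2050.2 and 1898; these 3 genes form a cluster in the genome. CHRNB2, which pairs with alpha subunits, was at 3724, 1754 and 1608. Of 16 subunit genes 6 were above 0 in all 3 libraries and 6 were listed at 0, which is 37.5% each and near the 45.4% and 40.1% of all genes; at 0 were among others CHRNA2, CHRNA6 and CHRNB3. CHAT, which makes acetylcholine, was at 438, 328 and 186. Of 23 cadherin genes 15 were at 0, against 40.1% of all genes, and 2 were above 0 in all 3 libraries, CDH24, at 2144, 652 and 1429, and CDH23. Of 56 keratin genes 49 were at 0, and of 23 claudins 17 were, against the same 40.1%.

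LINC00261, a long noncoding RNA gene next to FOXA2, was read at 8374, 6672 and 8577. The stress-response factors ATF5, at 27321, 20633 and 15862, and ATF4, at 15362, 18589.8 and 13038, were the highest among symbols with transcription factor prefixes that name factors. LDHB, at 12824, 13685 and 13904, lay above LDHA, at 8459, 13226 and 10706, per kb, where LDHA was 0.510 times LDHB. BCL2, an inhibitor of cell death, was at 2323, 2042 and 1412 and MCL1 at 2564, 1027 and 1411. TOP1, the target of camptothecins, was at 11593 ± 1639, and SLFN11, whose product sensitises cells to DNA damage, was at 277, 289 and 1248, with replicate 5 above the others.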
